A study of Oryza sativa with 9 samples.

Results

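OsSRO1c and the rice DREB2 factors are the proteins around which this RNA-seq series was designed, and the transcripts of 5 of these genes were followed here through 9 libraries. They are OsSRO1c (LOC_Os03g12820, chromosome 3), OsDREB2B (LOC_Os05g27930, chromosome 5), OsDREB2A (LOC_Os01g07120, chromosome 1), OsDREB2C (LOC_Os08g45110, chromosome 8) and OsDREB2E (LOC_Os03g07830, chromosome 3), taken by locus identifier from a table of 55801 loci, and all 5 were present in it. RNA came from shoots of rice seedlings of the ZH11 background at the stage with 4 leaves, in 3 groups of 3 libraries: wild type (WT), an ossro1c knockout and an osdreb2b knockout. All 3 groups had been held at 4 °C for 2 d, so the comparisons are between genotypes in the cold and hold no unchilled reference. The design text asks which genes lie downstream of a complex of OsSRO1c and OsDREB2B. The labels give neither the lesion in each knockout nor the number of independent lines, and they do not say whether a library is 1 plant or a pool, which means that the p-values reflect variation among these libraries alone, and that variation may be technical.

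SRO proteins are a plant family related to Arabidopsis RCD1; they carry a region resembling the catalytic part of poly(ADP-ribose) polymerases and a C-terminal domain that binds transcription factors. In Arabidopsis, RCD1 binds DREB2A through that domain. DREB2 proteins are AP2/ERF transcription factors that recognise the dehydration-responsive element of stress gene promoters; as a class they are best known from drought, salt and heat, whereas the sister class DREB1/CBF is the classical cold class. In Arabidopsis the heat shock factor gene HSFA3 is a known target of DREB2A. Rice OsDREB2B is known to be spliced into alternative transcripts, and a count per locus does not separate them.

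Library totals ran from 58398026 to 69336224 counts. Levels below are TMM-scaled CPM, the counts of a gene divided by the scaled size of its library, which depend on transcript length and are compared only within a gene. Replicate 3 of the libraries labelled ossro1c stood apart from its group: the chi-square of counts per gene against replicates 1 and 2 was 84.4 and 84.2, while it was between 8.56 and 14.3 for all other pairs of replicates. Values without it are given beside the results for the members, COLD1 and the counts of the larger gene lists against WT. Of the shoot markers checked by name, RBCS, RBCS1 and CAB2R were all detected, and their summed CPM ran from 8059 to 8406 in WT libraries, from 7302 to 10538 in those labelled ossro1c and from 17526 to 18472 in those labelled osdreb2b. The single markers moved unequally. Under osdreb2b they were 1.85-fold, 2.15-fold and 24.7-fold higher than WT, in the order named. Under ossro1c RBCS1 was 1.75-fold higher, while RBCS and CAB2R did not pass (adjusted p = 0.13 and 0.93, edgeR). Without ossro1c replicate 3 RBCS and CAB2R passed as lower (log2 -0.41 and -0.23). Of 2 root markers, Lsi2 was at 0 in every library, so that the sum is Lsi1 alone: 2.18 to 2.82 CPM for WT, 15.8 to 19.8 for ossro1c and 8.49 to 11.8 for osdreb2b. Of 3 markers of dividing or meristem cells, OSH1 was at 0 in every library, and the sum was 8.58 to 9.63, 9.73 to 13.02 and 27.2 to 32.4 CPM in the same order. The part of these shifts in the results below was not tested, and in bulk shoots fewer cells of a type cannot be told apart from less RNA per cell.

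OsSRO1c was high in chilled WT and much lower under both mutant labels, with its lowest level under the label of the other mutant. The WT libraries held 120112, 115016 and 119143 counts of OsSRO1c, or 2078, 2024 and 2044 CPM. The libraries labelled ossro1c held 25176, 31909 and 34251 counts, or 379, 415 and 451 CPM. The libraries labelled osdreb2b held 8597, 8178 and 9143 counts, or 129, 134 and 138 CPM. The 3 groups did not overlap, and the order was WT, ossro1c, osdreb2b from high to low. The transcript took 0.183% to 0.186% of all counts of a WT library, 0.0431% to 0.0494% under the ossro1c label and 0.0128% to 0.0136% under the osdreb2b label. Each library labelled ossro1c therefore still held at least 25176 counts at the locus its label names. Without the position of the lesion, a count over the whole locus checks neither the allele nor the protein. OsSRO1c was lowest under the osdreb2b label and OsDREB2B, described next, was lowest under the ossro1c label. Whether the names of the mutant groups were exchanged cannot be checked from these counts, and every direction below is that of the libraries as labelled.

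Set against WT, OsSRO1c was lower in edgeR's quasi-likelihood test under both mutant labels. The log2 change was -2.30 under ossro1c (adjusted p = 2.7e-11, SE 0.07) and -3.94 under osdreb2b (adjusted p = 5e-13, SE 0.08). These are 4.94-fold and 15.3-fold lower levels. Without ossro1c replicate 3 the first value was -2.37. The direct comparison of the mutant labels gave -1.63 for osdreb2b against ossro1c (SE 0.07, adjusted p = 6.7e-10), a 3.10-fold difference, and -1.57 without ossro1c replicate 3. Falls at least as large were found in 4.78% of 26112 genes tested under the ossro1c label and in 2.28% under the osdreb2b label.

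**Figure D1:**
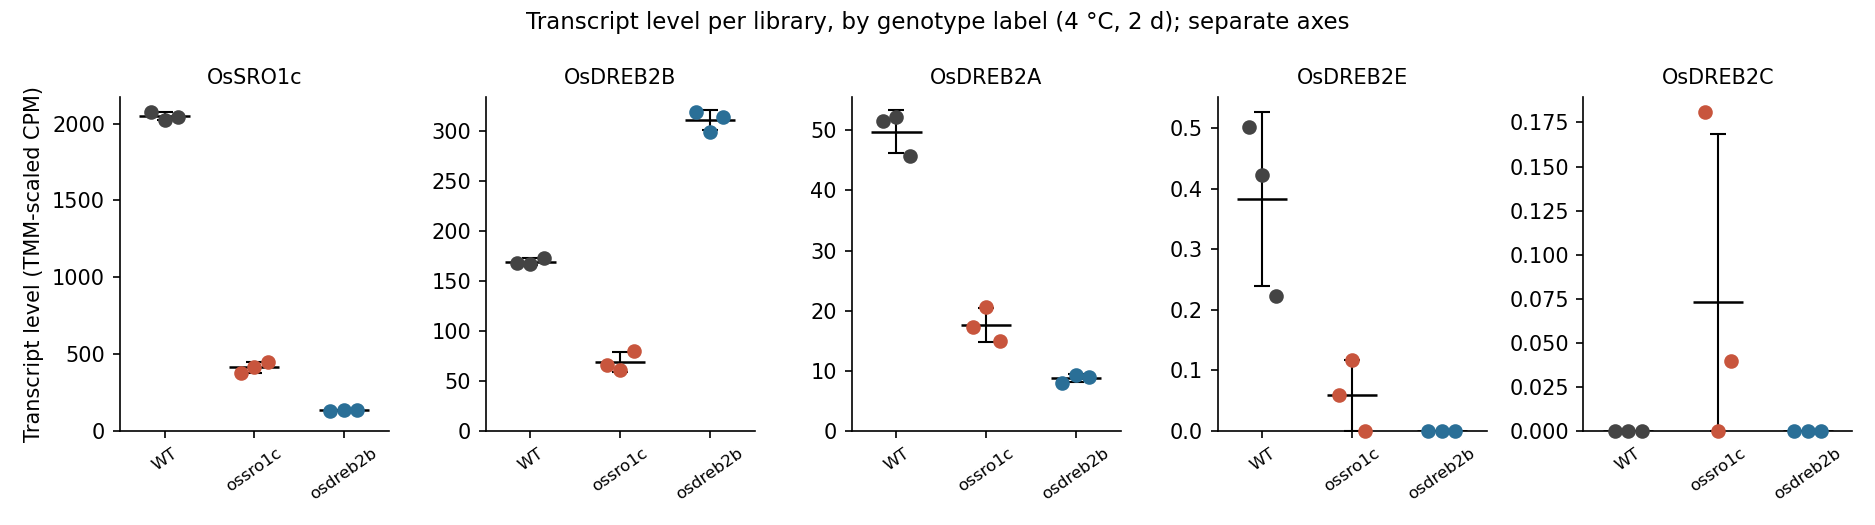
Transcript level of each gene in each library in TMM-scaled CPM, with a separate linear axis from 0 for each gene; points are libraries, horizontal lines group means and bars 1 SD (n = 3), stopped at 0. OsSRO1c and OsDREB2A descend from WT to ossro1c to osdreb2b, OsDREB2B is lowest under ossro1c and highest under osdreb2b, and OsDREB2E and OsDREB2C stay under 0.6 CPM.

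OsDREB2B, the AP2/ERF partner named with OsSRO1c in the title, took a different order. Its level was 168, 166 and 173 CPM in WT, from 9719, 9452 and 10080 counts. Under the ossro1c label it was 65.9, 60.5 and 79.8 CPM, from 4380, 4656 and 6058 counts. Under the osdreb2b label it was 319, 299 and 314 CPM, from 21222, 18240 and 20832 counts. The groups did not overlap, and the transcript was highest in the libraries whose label names the gene itself. The group means were 169 ± 3.42 CPM in WT, 68.8 ± 9.96 CPM under ossro1c and 311 ± 10.3 CPM under osdreb2b (SD, n = 3), so the relative spread was widest under the ossro1c label, at 14.5% of the mean against 2.02% in WT.

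OsDREB2B was lower than in WT by a log2 change of -1.30 under the ossro1c label (SE 0.09, adjusted p = 3.7e-08, edgeR), and without ossro1c replicate 3 the value was -1.42. It was higher than in WT by 0.88 under the osdreb2b label (SE 0.09, adjusted p = 1.7e-06), a 1.84-fold rise. The test of the difference between both labels, osdreb2b against ossro1c, gave 2.18 (SE 0.10, adjusted p = 5.4e-10), or 4.52-fold, and 2.30 without ossro1c replicate 3. A fall at least as large as that of OsDREB2B under the ossro1c label was found in 13.6% of the genes tested. A rise at least as large as that of OsDREB2B from WT under the osdreb2b label was found in 24% of the genes tested. Its higher level between the mutant labels was matched or exceeded by 3.49% of them.

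OsDREB2A, the DREB2 gene of rice best known from drought and salt, followed the order of OsSRO1c. The WT libraries stood at 51.5, 52.2 and 45.7 CPM, from 2977, 2964 and 2661 counts. Under the ossro1c label the level was 17.3, 20.6 and 14.96 CPM, from 1151, 1587 and 1135 counts. Under the osdreb2b label it was 8.03, 9.31 and 9.02 CPM, from 534, 568 and 599 counts. No group overlapped another. OsDREB2A was 2.82-fold lower than WT under ossro1c (log2 -1.50, SE 0.12, adjusted p = 1.4e-07, edgeR; -1.39 without ossro1c replicate 3) and 5.66-fold lower under osdreb2b (log2 -2.50, SE 0.13, adjusted p = 1.1e-09). Between the mutant labels it differed by -1.01 (SE 0.12, adjusted p = 1.3e-05), with osdreb2b the lower, and by -1.11 without ossro1c replicate 3. Falls at least as large were found in 10.9% of genes tested under ossro1c, 5.38% under osdreb2b and 15.1% between the mutant labels.

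OsDREB2E and OsDREB2C, DREB2 factors of the same class, were close to the limit of detection at this depth, where 3 counts in a library correspond to 0.0390 to 0.0528 CPM. OsDREB2E had 29, 24 and 13 counts in the WT libraries, 4, 9 and 0 under the ossro1c label and 0, 0 and 0 under the osdreb2b label. WT libraries were above every mutant library. It entered the test only through WT, the group where it was highest, so that a difference from WT was built into its selection. Summed over the group, the 13 counts under ossro1c against 66 in WT correspond to 15.5% of the WT level after scaling, with an exact 95% interval of 7.86% to 28.4% that covers counting error only. The difference between these labels did not pass the threshold (log2 -2.65, SE 1.17, adjusted p = 0.07, edgeR), and reached 0.045 when the 6 libraries of these labels were fitted alone. With 1 library left out the log2 value ran from -3.62 without ossro1c replicate 2 to -2.08 without ossro1c replicate 3, and neither passed. Against the osdreb2b libraries, with no count, the WT level was 24.7-fold above a floor of 3 counts over the group. This ratio takes the WT counts as exact and is not a lower bound. The ossro1c level, taken in the same way, was 3.83-fold above that floor, but the mutant groups overlapped. Between the mutant labels the adjusted p was 0.056 in edgeR, and 0.021 without ossro1c replicate 3. The exact permutation p was 0.4.

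OsDREB2C had 12, 0 and 3 counts under the ossro1c label and no count in the WT or osdreb2b libraries. It did not pass the filter on low counts. With the filter removed, the difference between ossro1c and WT had an adjusted p of 0.13 in edgeR and 0.30 in DESeq2, and an exact permutation test of the libraries gave p = 0.4. A difference was thus not detectable at this depth, and of the 15 counts 12 came from replicate 1. The 3 WT libraries together allow a level of up to 0.0174 CPM at 0 counts. OsDREB2D (LOC_Os05g39590), a further DREB2 gene and not one of the 5, was as scarce: 10, 41 and 31 counts in WT, 15, 8 and 7 under ossro1c and 0, 10 and 0 under osdreb2b. Its level under osdreb2b was lower than WT at adjusted p = 0.043 (edgeR, log2 -3.11), a call that was lost when WT replicate 2 or 3, ossro1c replicate 1 or 2, or osdreb2b replicate 1 or 3 was left out (adjusted p of 0.15, 0.10, 0.055, 0.059, 0.12 and 0.12) and under raw library totals (0.053). Its level under ossro1c did not pass (adjusted p = 0.20). OsDREB2D passed the filter only with the WT libraries, the group where it was highest. As for OsDREB2E, a difference from WT was thus built into its selection.

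Of the 4 members tested, 3 passed the threshold of 0.05 under the ossro1c label, all lower, where 60.9% of all genes tested passed and 31.4% passed as lower. Under the osdreb2b label 3 passed as lower and 1 as higher, and 1 of the 3 is OsDREB2E, whose difference from WT was built into its selection; there 59.6% of all genes passed, 29.6% as lower and 29.9% as higher. Between the mutant labels 2 passed as lower and 1 as higher, against 46.5% of all genes, 23.6% as lower and 22.9% as higher. Passing was therefore common among all genes, and the size of the change places a member better than the call does. The groups of WT and ossro1c did not overlap for 67.2% of genes, and those of WT and osdreb2b for 70%, and those of the mutant labels for 54.9%. For each member whose groups did not overlap, the exact permutation test on log2 CPM gave p = 0.1, which is the smallest that 3 libraries against 3 allow. The comparisons with WT share the same 3 WT libraries.

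**Figure D2:**
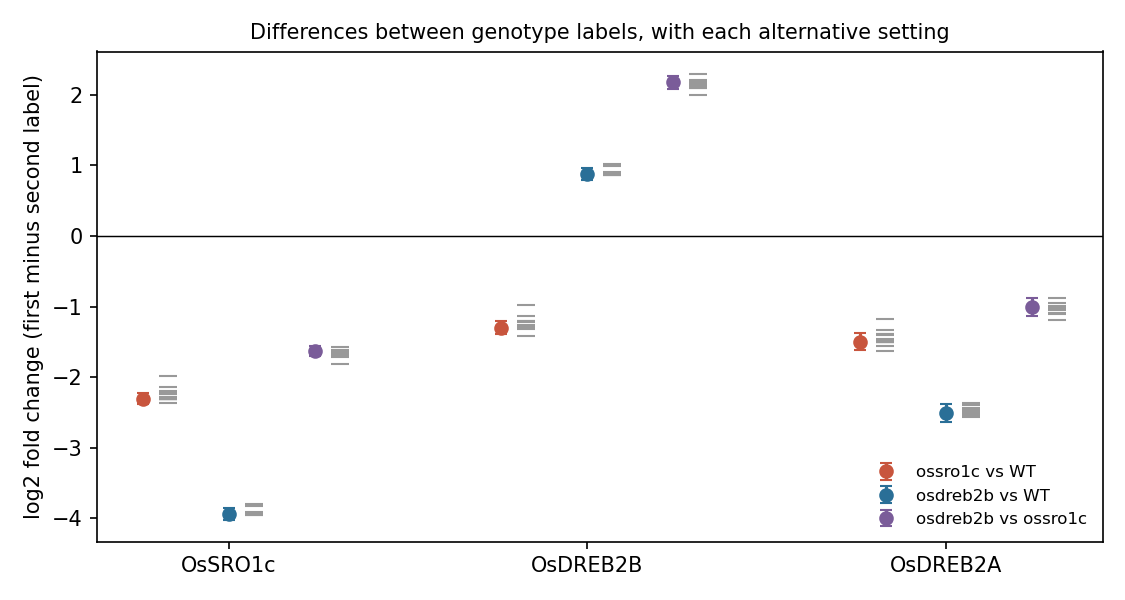
Log2 fold change of OsSRO1c, OsDREB2B and OsDREB2A between genotype labels (first minus second named), as points with 1 SE from edgeR over 9 libraries; grey dashes give the value under each of 17 alternatives. OsDREB2B is the gene that lies on both sides of 0, at -1.30 and 0.88 against WT, and no alternative moved any of the 9 values across 0.

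**Figure D3:**
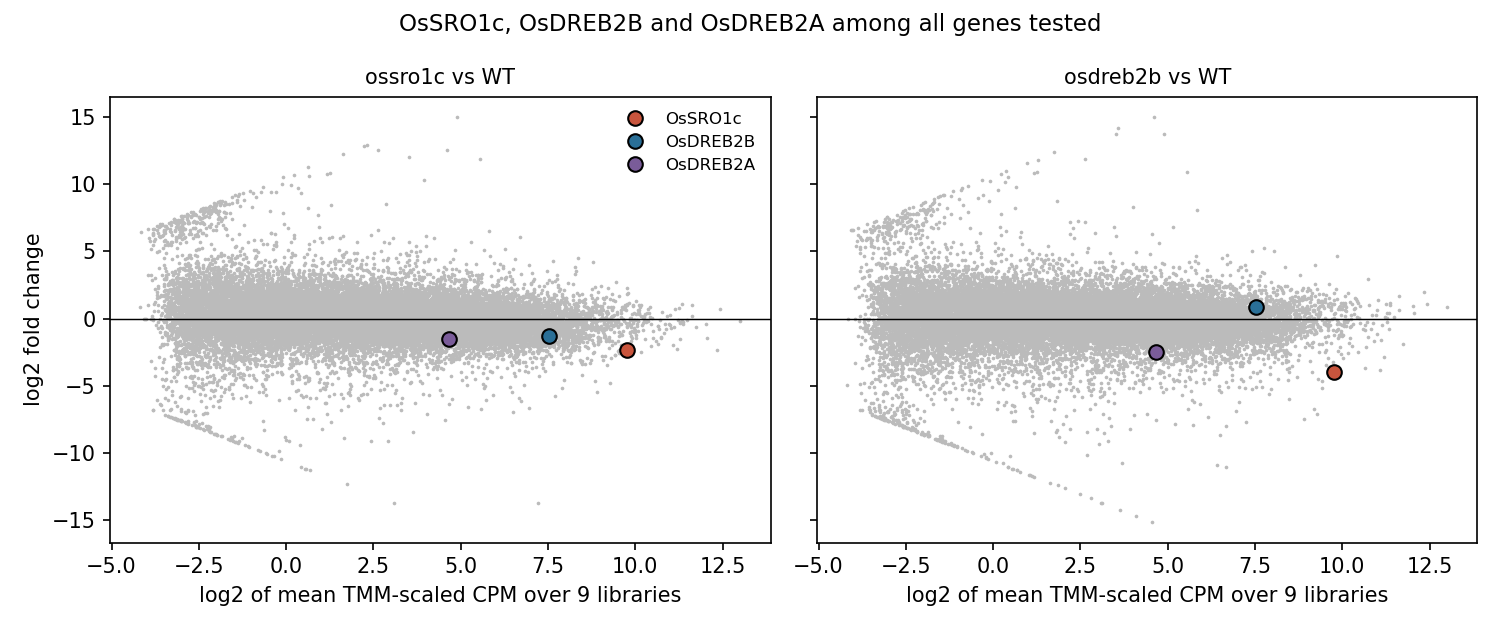
Log2 fold change against log2 mean level for 26112 genes tested (grey), with OsSRO1c, OsDREB2B and OsDREB2A marked, for each mutant label against WT. OsSRO1c lies below 0 in both panels, at -2.30 and -3.94, and OsDREB2A at -1.50 and -2.50, while OsDREB2B lies at -1.30 and 0.88.

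Ratios of counts within a library do not depend on how libraries are scaled, and they show only that genes changed unequally. OsSRO1c had 12.4, 12.2 and 11.8 counts for each count of OsDREB2B in the WT libraries. Under the ossro1c label the ratio was 5.75, 6.85 and 5.65. Under the osdreb2b label it was 0.405, 0.448 and 0.439. The ratio was thus above 1 in every WT and ossro1c library and below 1 in every osdreb2b library. Because counts depend on transcript length, the side of 1 does not show which transcript was more abundant. On the log2 scale the means were 3.60 ± 0.03, 2.60 ± 0.15 and -1.22 ± 0.08 (SD, n = 3), which differ from WT by -0.999 under ossro1c and by -4.81 under osdreb2b. Without ossro1c replicate 3 the first difference was -0.949. The groups did not overlap, and the exact two-sided permutation p was 0.1 in each case, the smallest possible.

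The ratio of OsDREB2A to OsDREB2B separated only the osdreb2b label. It was 0.306, 0.314 and 0.264 in WT and 0.263, 0.341 and 0.187 under ossro1c, groups that overlapped. Their log2 means were -1.77 ± 0.13 and -1.97 ± 0.43, a difference of -0.20 with an exact permutation p of 0.6; without ossro1c replicate 3 the difference was 0.03. The difference between WT and ossro1c was smaller than the SD of the ossro1c libraries. Under osdreb2b the ratio was 0.0252, 0.0312 and 0.0288, lower than in any other library. Its log2 mean was -5.14 ± 0.16, which is -3.38 from WT and -3.18 from ossro1c (exact permutation p = 0.1 each), the latter -3.40 without ossro1c replicate 3.

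**Figure D4:**
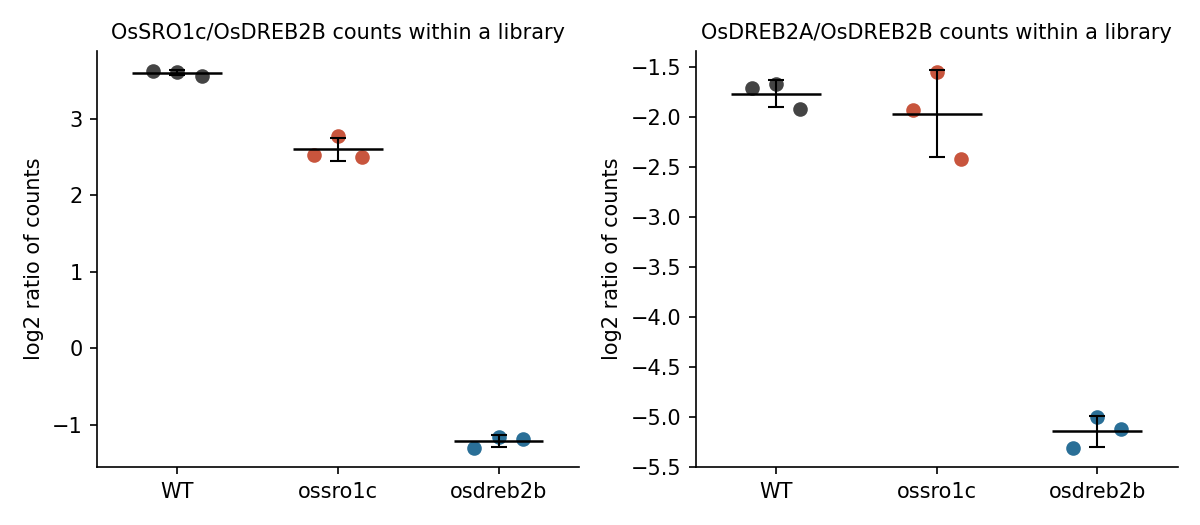
Log2 ratio of counts between a pair of members within each library, by genotype label; points are libraries, lines means and bars 1 SD (n = 3). The ratio of OsSRO1c to OsDREB2B steps down from 3.60 to 2.60 to -1.22, whereas the ratio of OsDREB2A to OsDREB2B overlaps between WT and ossro1c and drops to -5.14 under osdreb2b.

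To place these patterns beside better known genes, each member was compared with 57 genes whose name was checked. The highest group mean of each was at least 5 CPM. These genes came from lists chosen with earlier results of these data known, so that a near match is not an independent find. Likeness was the root mean square difference of log2 CPM over the 9 libraries, each gene centred on its own WT mean. OsDREB2A was nearest to HSFA3 (LOC_Os02g32590), a heat shock factor, at 0.16 on the log2 scale, and 5 of 15446 genes of all names were nearer. HSFA3 stood at 738, 699 and 675 CPM in WT, at 235, 219 and 226 CPM under ossro1c and at 121, 119 and 120 CPM under osdreb2b. Its log2 changes from WT were -1.64 and -2.55, beside -1.50 and -2.50 for OsDREB2A. HSFB1 (LOC_Os09g28354), a class B heat shock factor, followed at 0.37 with 198 genes nearer, and OsNAC6 (LOC_Os01g66120), a stress NAC factor, at 0.49 with 491 nearer.

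OsDREB2B was nearest to PRR95 (LOC_Os09g36220), a pseudo-response regulator of the circadian clock, at 0.19, with 22 genes nearer. PRR95 stood at 1339, 1273 and 1324 CPM in WT, at 503, 526 and 435 CPM under ossro1c and at 2470, 2553 and 2567 CPM under osdreb2b. Its log2 changes from WT were -1.43 (adjusted p = 1.8e-09, edgeR) and 0.95 (adjusted p = 9.1e-08), so that it was also the lowest under ossro1c and the highest under osdreb2b. HSFA2C (LOC_Os10g28340), at 0.51 with 504 genes nearer, and PORB (LOC_Os10g35370), a protochlorophyllide reductase gene, at 0.60 with 846 nearer, had the same order of groups. OsSRO1c had no close named neighbour: RAB16A (LOC_Os11g26790), a dehydrin gene, came first at 0.44 with 64 genes nearer, then HSP101 (LOC_Os05g44340) at 0.61 with 164 nearer and HSFA3 at 0.90 with 417 nearer. For OsDREB2E the same 3 genes came first, from 0.70 upward, but its counts are too low for the pattern to be read closely.

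**Figure D5:**
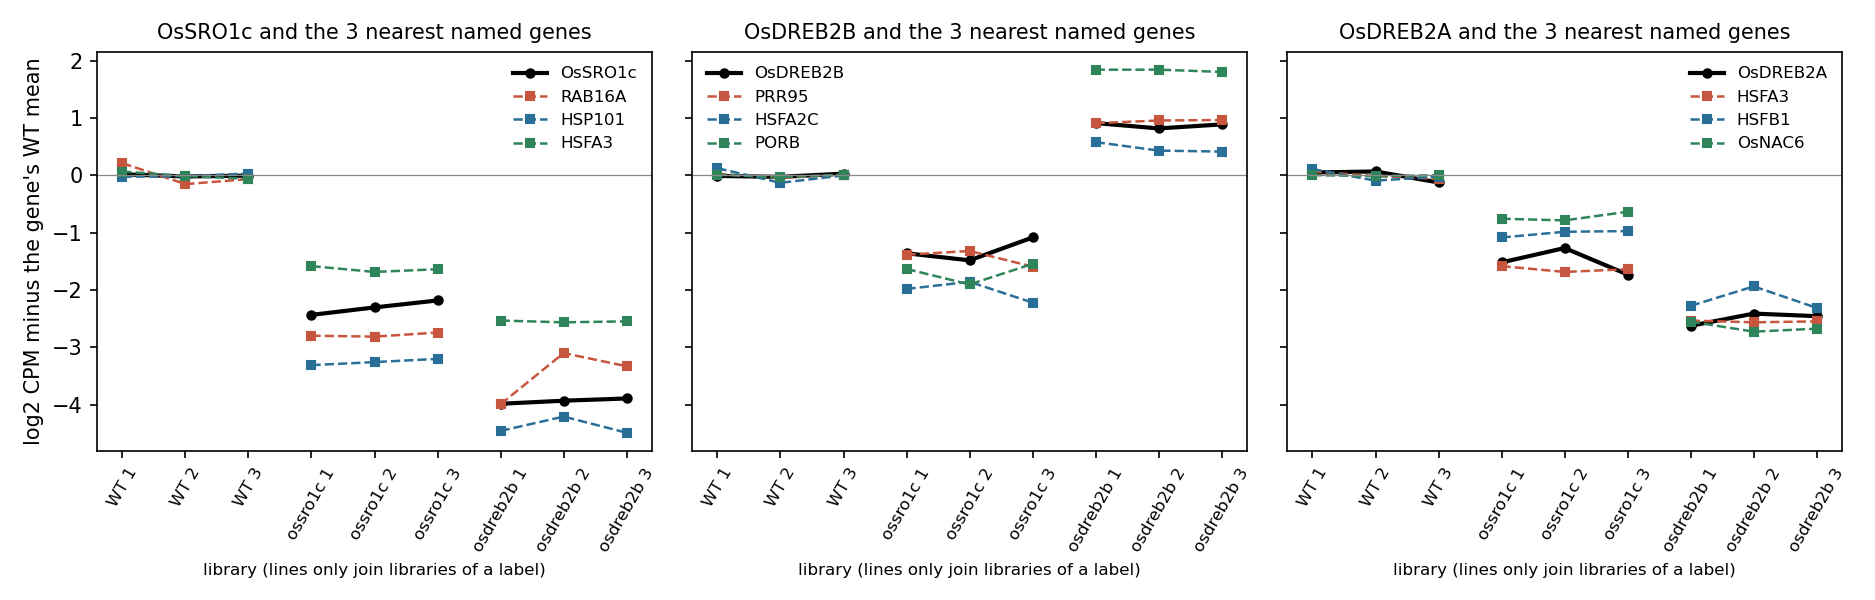
Log2 CPM minus the gene's own WT mean in each of 9 libraries, for OsSRO1c, OsDREB2B and OsDREB2A (black) and for the 3 checked genes nearest to each (dashed). HSFA3 runs 0.16 from OsDREB2A and PRR95 runs 0.19 from OsDREB2B, while RAB16A, the nearest to OsSRO1c, runs at 0.44.

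COLD1 (LOC_Os04g51180), the membrane protein of cold sensing that the title names as a gene regulated by the complex, was set beside the 5 genes. It stood at 52.5, 50.2 and 51.6 CPM in WT, 29.7, 31.4 and 29.1 CPM under ossro1c and 31.3, 32.8 and 32.5 CPM under osdreb2b. COLD1 was lower than WT under both labels (log2 -0.78 and -0.68, adjusted p = 1.2e-06 and 4.5e-06, edgeR; the first -0.75 without ossro1c replicate 3) and did not pass between them (0.10, SE 0.08, adjusted p = 0.32). OsSRO1c, OsDREB2B and OsDREB2A each passed in that direct comparison. Over all genes tested, the lower quartile of the log2 change from WT was -0.77 under ossro1c and -0.74 under osdreb2b. Of these genes 31.4% and 29.6% passed as lower, so a fall of the size seen for COLD1 was common. OsDREB2B transcript in libraries labelled as its knockout does not measure the protein, and whether COLD1 is regulated by the complex was not tested.

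Heat shock factors, which bind the heat shock element of chaperone promoters, were lower for 12 of 19 and higher for 4 of 19 under the ossro1c label, with a median log2 change of -0.76 beside -0.0014 over all genes tested, of which 31.4% were lower and 29.4% higher. Under osdreb2b 10 were lower and 5 higher, with a median of -0.20 beside 0.03 over all genes, of which 29.6% were lower and 29.9% higher. Without ossro1c replicate 3 the counts under ossro1c were 12 lower and 3 higher. HSFA3 was lower 3.11-fold and 5.86-fold. Under ossro1c HSFA2C was lower 4.07-fold and HSFB2C (LOC_Os09g35790), a class B factor, 14.1-fold. Under osdreb2b HSFB2C was lower 5.53-fold, whereas HSFA2C was 1.39-fold higher. HSFB2B (LOC_Os08g43334), another class B factor, had 1704 counts over the WT libraries and 0 under ossro1c. A floor of 3 counts over the group lies 720-fold below its WT level. Under osdreb2b HSFB2B had 0, 4 and 14 counts. HSFB2B and HSFA2A (LOC_Os03g53340) entered the test only through WT, so that their falls were built into their selection. Both are counted among the lower factors under each label and are included in the medians. This list was also chosen with earlier results of these data known. HSFC1B (LOC_Os01g53220) went opposite ways, 2.16-fold lower under ossro1c and 3.75-fold higher under osdreb2b. HSFC2A (LOC_Os02g13800) was 2.72-fold higher under ossro1c and 2.60-fold lower under osdreb2b. Under osdreb2b HSFA4D (LOC_Os05g45410) was lower 8.36-fold and HSFC2B (LOC_Os06g35960) 6.40-fold. HSFC2B did not pass under ossro1c, at 50.1 ± 5.23 CPM against 44.3 ± 3.18 CPM in WT (adjusted p = 0.21), although it did under upper-quartile scaling, raw library totals and the fit of 6 libraries (adjusted p of 0.024, 0.0017 and 0.028). The count of higher factors fell to 2 under ossro1c without WT replicate 2, and to 3 under osdreb2b without WT replicate 1 or 2 or osdreb2b replicate 1 or 2.

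All 5 named chaperone genes were lower under both labels, with median log2 changes of -4.25 and -4.40, where 31.4% and 29.6% of all genes were lower. All 5 were also lower under ossro1c without its replicate 3. The chaperone list and the dehydrin and LEA list below were chosen with earlier results of these data known. Their counts beside the shares of all genes are therefore descriptive only. HSP82A (LOC_Os08g39140), an HSP90 gene, was 53.9-fold and 33.9-fold lower. Between the labels HSP18.0 (LOC_Os01g08860), a small heat shock protein gene, was 6.27-fold higher under osdreb2b, whereas HSP101, the disaggregase gene, was lower there (log2 -1.14, adjusted p = 1.1e-06, edgeR). Dehydrin and LEA genes, which protect dehydrating cells, were lower for 3 of 5 and higher for 1 of 5 under ossro1c (median -1.55), and lower for 4 of 5 under osdreb2b (median -2.68). The medians of all genes were -0.0014 and 0.03, with 31.4% of genes lower and 29.4% higher under ossro1c and 29.6% lower under osdreb2b. The counts under ossro1c were 3 and 1 without its replicate 3 as well. RAB16A was 7.09-fold and 11.3-fold lower, and OsLEA3 (LOC_Os05g46480), an LEA gene, 2.49-fold and 42.8-fold. DHN1 (LOC_Os02g44870), a dehydrin gene, went opposite ways, 1.78-fold higher under ossro1c at 975 ± 141 CPM and lower under osdreb2b at 368 ± 12.9 CPM, against 548 ± 10.9 CPM in WT (SD, n = 3), and the labels differed by -1.40 (adjusted p = 2.4e-08, edgeR). RAB16B (LOC_Os11g26780) did not pass under either label (adjusted p = 0.16 and 0.083).

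Genes of the sister class DREB1/CBF were higher under both labels, where OsDREB2A was lower. Of 7 named DREB1 genes, 6 were tested and 6 were higher than WT under each label, with median log2 changes of 4.81 and 2.75, where 29.4% and 29.9% of all genes were higher. All 6 were higher under ossro1c without its replicate 3. The DREB1 list was also chosen with earlier results of these data known, so these counts are descriptive only. OsDREB1E (LOC_Os04g48350), 1 of the 6, was at 0.0692 to 0.137 CPM in WT and entered the test only through the mutant groups. Its rise was thus built into its selection, and it is included in these counts and medians. OsDREB1B (LOC_Os09g35010) was 66.5-fold and 27.04-fold higher. OsDREB1C (LOC_Os06g03670) was 50.6-fold higher under ossro1c and 2.12-fold higher under osdreb2b, a difference between the labels of -4.58 (SE 0.16, adjusted p = 6.7e-11, edgeR). OsDREB1H (LOC_Os09g35020) showed the opposite difference, 2.04 higher under osdreb2b than under ossro1c. OsNAC6 was 1.65-fold lower under ossro1c and 6.28-fold lower under osdreb2b. RGA1 (LOC_Os05g26890), the G protein alpha subunit known to act with COLD1, was 1.58-fold and 1.42-fold lower.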

How the data were processed

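The authors deposited raw counts per locus, not normalised, for 9 libraries. Per the labels, total RNA was taken with TRIzol and a SMARTER kit built the libraries. StringTie 2.1.4, HISAT2 2.2.1, fastp 0.23.4 and DESeq2 appear in the submitters' processing notes with no role. Sources used here do not give the build, the annotation or the use of strand, so reads from overlapping or antisense genes, or shared between paralogs of the DREB, RAB16 or RBCS families, cannot be told apart. The members and gene lists were chosen with earlier results of these data known.

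Groups came from the titles, and 0 columns were left unused. Genes were filtered with filterByExpr by group, leaving 26112 and 4 of the 5 members, scaled by TMM and tested with edgeR 4.0.16 (R 4.3.3, robust quasi-likelihood, 1 coefficient per group over 9 libraries). Adjusted p-values are Benjamini-Hochberg over all genes tested, with a threshold of 0.05. The SE is the log2 change divided by the square root of F. The edgeR step was tested on simulated data. Ratios used a prior count of 0.5 and the exact permutation test; the log2 CPM of single members and of the likeness measure had small prior counts, 2 for likeness. Totals of 58398026 to 69336224 counts set the precision; intervals and floors cover counting error only.

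Locus and name pairs come from knowledge of the rice genome. Of 93 listed loci, 70 had a name found in the reference gene table (assembly ASM3414082v1) on the right chromosome and within 2 Mb of the position interpolated from identifiers, and only these were used; 3 aliases were added after that table was seen. Of the members 3 were found there; OsSRO1c and OsDREB2E are named as in the definition of the set. For each list the 3 genes with the smallest adjusted p per comparison with WT and up to 2 that did not pass could be named, and for each member the 3 nearest checked genes. Some further genes are named to state a limit or a change in the other direction. Replicate numbers did not pair the samples: the deviations of same-numbered libraries correlated at -0.00913 to 0.0221. Alternatives were other scalings (DESeq2 size factors, upper quartile, raw totals), other filters, DESeq2 1.42.0, fits of 6 libraries, a replicate block and leaving out each library.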

Additional observations from a re-analysis of the deposited data

How the results depend on the processing

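The 9 differences of OsSRO1c, OsDREB2B and OsDREB2A kept their direction and passed the threshold under all 17 alternatives. Their widest range was that of OsDREB2A under the ossro1c label, from -1.62 to -1.17, the latter under raw library totals. Raw totals brought the median of all genes to 0.32 under the ossro1c label, 0.17 under osdreb2b and -0.20 between the labels, from -0.0014, 0.03 and -0.02, and moved the share of higher calls from 48.4% to 63.2% under the ossro1c label and from 49.2% to 35.3% between the labels. Replicate numbers did not pair the samples; with the replicate block OsSRO1c was at -2.31, OsDREB2B at -1.31 and OsDREB2A at -1.50 under the ossro1c label, no call of a member changed, and 15666 genes passed in that comparison in place of 15892. OsDREB2E passed between ossro1c and WT when their 6 libraries were fitted alone (log2 -2.54). Between osdreb2b and ossro1c it passed under raw library totals (-5.16) and in DESeq2 (-4.41), and with 1 library left out its value ran from -5.54 to -3.99; fitted values against a group with no count depend on the prior count. Depth limits OsDREB2E, with at most 66 counts in a group, and OsDREB2C, with at most 15. OsDREB2E has no value under the filter of 1 CPM. Among other genes, HSFA1 changed sign under raw library totals (0.0031 against -0.32 under ossro1c), and CAB2R under ossro1c, which did not pass over 9 libraries (0.02, adjusted p = 0.93, edgeR), ran from -0.23 without ossro1c replicate 3, where it passed as lower (adjusted p = 0.0063), to 0.16 without ossro1c replicate 1. The cause was not tested.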

Other observations

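The loci listed on both sides of OsDREB2C in the count table, singled out after their values were seen, were detected in WT and scarce in the other libraries. LOC_Os08g45100, listed just before it, had 329, 357 and 391 counts in WT, 20, 0 and 16 under the ossro1c label and 0, 10 and 0 under the osdreb2b label. LOC_Os08g45120, listed just after it, had 97, 65 and 64 counts in WT, 0 in every ossro1c library and 2, 0 and 0 in the osdreb2b libraries. Both were lower than WT under each label. Because their values had been seen when they were picked, p-values for this difference are left out. LOC_Os08g45120 also entered the test only through WT, so that its fall was built into its selection. OsDREB2C itself had no count in WT.

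Of the loci near OsSRO1c, LOC_Os03g12810, listed 2 places before it, was lower than WT under both labels (log2 -0.31 and -0.36, adjusted p = 0.0098 and 0.0037, edgeR). LOC_Os03g12840, listed 2 places after it, was higher than WT under ossro1c (log2 1.13, adjusted p = 1.8e-08) and lower under osdreb2b (-0.27, adjusted p = 0.0058). LOC_Os03g12815, just before OsSRO1c, did not pass under either label (adjusted p = 0.23 and 0.32, edgeR), and LOC_Os03g12830, just after it, was not tested. LOC_Os05g27920, just before OsDREB2B, was lower under both labels (-1.27 and -0.86), whereas OsDREB2B was higher under osdreb2b. LOC_Os05g27940, just after OsDREB2B, was lower under both labels (-0.81 and -0.37). LOC_Os05g27950, the next locus, was higher under both (0.48 and 0.46). Of all genes tested 60.9% passed under ossro1c and 59.6% under osdreb2b.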
